A study of Mus musculus with 6 samples.

Results

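The 10 genes described here encode the proteins that coat lipid droplets in liver and the lipase that empties them, with 2 of its inhibitors. They are the perilipins Plin2, Plin3, Plin4 and Plin5, the CIDE genes Cidea, Cideb and Cidec, the adipose triglyceride lipase gene Pnpla2, and the inhibitor genes G0s2 and Hilpda. They were chosen by symbol, and all 10 were found among the 16135 genes of the deposited table. RNA of whole liver was compared between mice with a hepatocyte-specific knockout of the acetyl-CoA synthetase gene Acss2 (ACSS2-HKO) and mice labelled as carrying the floxed gene (ACSS2-flox), with 3 libraries of each genotype. Every mouse of both groups had been given a Lieber-DeCarli liquid diet containing ethanol for 10 days and then 1 ethanol binge, so no group without ethanol was compared. The labels name neither a Cre driver, an age nor a sex. They also do not say that each library came from a separate animal, so p-values measure only the spread between these libraries, which may be technical.

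Hepatocytes store triglyceride in droplets that are bounded by a phospholipid monolayer and covered with proteins. Perilipins shield the droplet surface from lipases, CIDE proteins move lipid between touching droplets or onto lipoproteins, and ATGL, the product of Pnpla2, removes the first fatty acid from triglyceride. The small proteins encoded by G0s2 and Hilpda bind ATGL and inhibit it, and ethanol feeding is a known cause of droplet accumulation in liver.

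Levels are in FPKM, which divides a gene's fragments by its length and by the size of the library, and the values imply totals of 33717125 to 39474527 fragments per library. The 2 libraries farthest from the others on the first principal component were ACSS2-HKO replicate 3 and ACSS2-flox replicate 1. In ACSS2-flox replicate 1, the 982 shortest genes tested read a median of 0.28 higher on the log2 scale than in the other ACSS2-flox libraries, and the 982 longest genes differed by a median of -0.55. The targeted gene Acss2 (chromosome 2, 155518043 to 155562743) read 50.6, 38.4 and 45.7 FPKM in ACSS2-HKO libraries, against 87.8, 61.5 and 58.5 FPKM in ACSS2-flox libraries. It gave a log2 fold change of -0.60 ± 0.21 (SE, as after every log2 fold change here; limma adjusted p = 0.637), so it was lower in every ACSS2-HKO library without passing the test. The ACSS2-HKO mean was 0.648 times the ACSS2-flox mean. A value for the whole gene can keep signal from exons that were not deleted and from other cells. Neither source was tested, and the extent of the deletion was not measured here.

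None of the 10 genes separated the genotypes. Of the 8 that were tested, 0 passed limma's test at an adjusted p of 0.05, where 0% of all 9818 tested genes passed. Limma voom on the fragments recovered from the FPKM also called 0 of 8. At an unadjusted p under 0.05 the count was again 0 of 8, against 7.59% of all tested genes (598 higher and 147 lower in ACSS2-HKO). The background itself moved with single libraries, to 267 higher and 74 lower without ACSS2-HKO replicate 3 and to 504 higher and 464 lower without ACSS2-flox replicate 1. The values of the groups overlapped for all 8, whereas they did not overlap for 15.5% of all tested genes. Log2 fold changes, which are ACSS2-HKO minus ACSS2-flox on log2(FPKM + 1), were above 0 for 6 of the 8 and below 0 for Cideb and G0s2, beside 66.0% above 0 among all tested genes. Their median was 0.18, beside 0.10 for all tested genes. The order of these medians turned without ACSS2-HKO replicate 1, at 0.0471 for the 8 and 0.0913 for all. The median of the 8 was 0.282 without ACSS2-HKO replicate 2 and 0.119 without ACSS2-flox replicate 2, and that of all genes was 0.0146 without ACSS2-flox replicate 1 and 0.171 without ACSS2-flox replicate 3. With median-ratio scaling the median of all tested genes was -0.01 and that of the 8 was 0.07. Plin4 and Cidea, with means under 1 FPKM, were below the filter and are given as values.

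**Figure D1:**
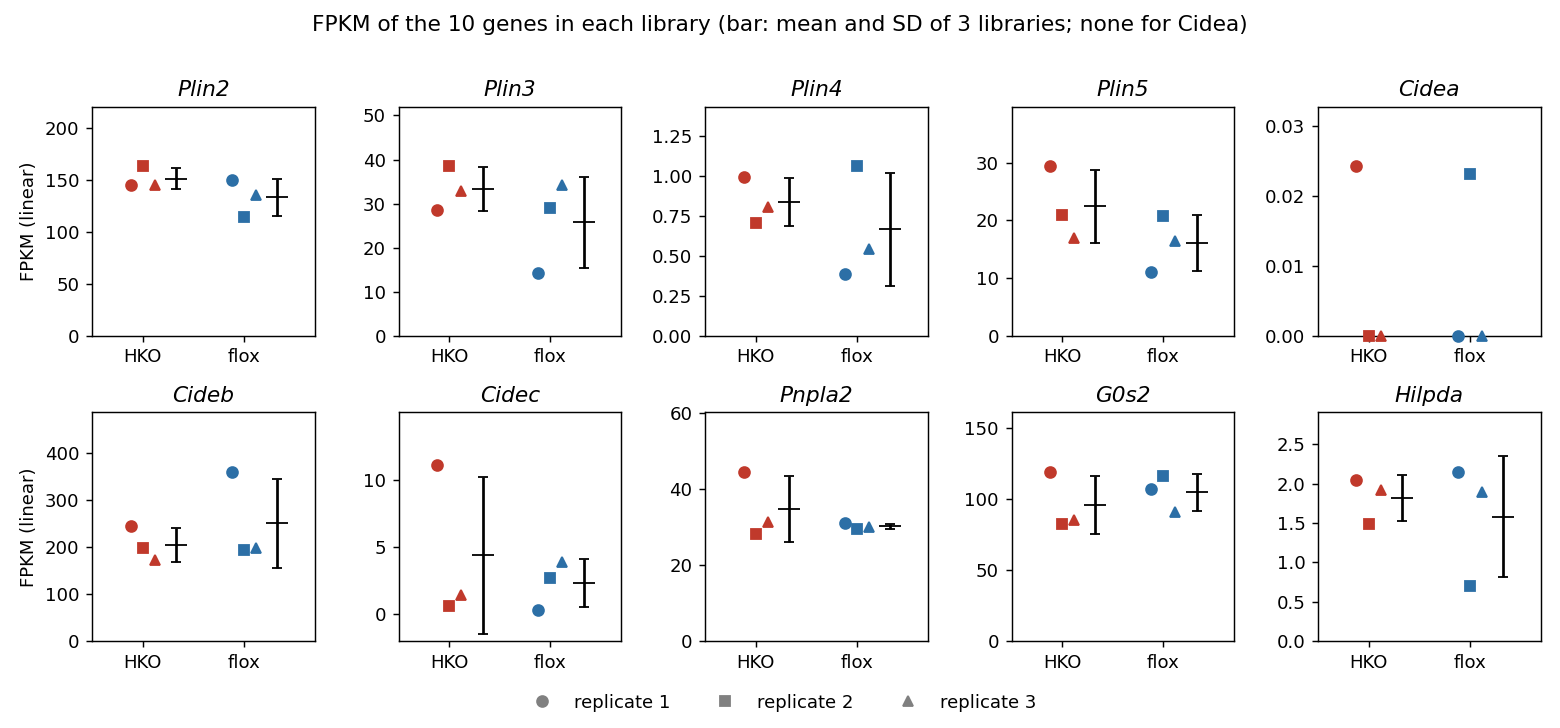
FPKM of each of the 10 genes in the 3 ACSS2-HKO libraries (red, left) and the 3 ACSS2-flox libraries (blue, right), with marker shapes for the replicates and black bars for the mean and SD of 3 libraries (none for Cidea). The groups overlap in every panel; Cidec runs from 0.338 to 11.1 FPKM, and ACSS2-flox replicate 1 is the lowest library for Plin3, Plin4, Plin5 and Cidec and the highest for Cideb.

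Plin2 encodes the perilipin that coats most hepatocyte droplets and rises with stored lipid. It lies on chromosome 4 (86626910 to 86670217, minus strand, build mm10). Plin2 read 145, 163 and 145 FPKM in ACSS2-HKO libraries, against 150, 114 and 135 FPKM in ACSS2-flox libraries. ACSS2-HKO replicate 2 was the highest of the 6, and ACSS2-flox replicate 1 lay above the other 2 ACSS2-HKO libraries. The means were 151 ± 10.5 FPKM in ACSS2-HKO and 133 ± 18.2 FPKM in ACSS2-flox (SD, n = 3 each). Its log2 fold change of 0.19 ± 0.18 (limma adjusted p = 0.818) had a 95% interval from -0.23 to 0.61, which spans 0.855 to 1.52 times the ACSS2-flox level. It was 0.06 with median-ratio scaling. It was 0.28 when ACSS2-flox replicate 1 was left out.

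Plin3 encodes a perilipin that is soluble in the cytosol and moves onto newly forming droplets. It lies on chromosome 17 (56278962 to 56290511, minus strand). Its FPKM was 28.6, 38.5 and 32.8 in ACSS2-HKO libraries, against 14.2, 28.9 and 34.1 in ACSS2-flox libraries. ACSS2-flox replicate 1 stood below all others, which ran from 28.6 to 38.5 FPKM in both genotypes. Its log2 fold change of 0.44 ± 0.31 had an adjusted p of 0.744 in limma and a 95% interval from -0.27 to 1.14, and it was 0.07 without that library. On the log2 scale Plin3 was -1.09 in ACSS2-flox replicate 1 relative to the other 2 ACSS2-flox libraries, while the 935 tested genes within 10% of its length had a median of -0.13.

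Plin5 encodes the perilipin of oxidative tissues, which holds droplets near mitochondria and binds ATGL. Its gene on chromosome 17 (56111597 to 56117606) lies 1648 bases from Plin4 on the same strand, and 161355 bases separate it from Plin3. Plin5 had the smallest p of the members. It read 29.4, 20.9 and 16.9 FPKM in ACSS2-HKO libraries, against 11.0, 20.8 and 16.4 FPKM in ACSS2-flox libraries. ACSS2-HKO replicate 1 was the highest and ACSS2-flox replicate 1 the lowest, and the remaining 4 libraries formed 2 pairs of close values, each with 1 library of either genotype. The means were 22.4 ± 6.38 FPKM in ACSS2-HKO and 16.0 ± 4.93 FPKM in ACSS2-flox (SD, n = 3 each). The log2 fold change was 0.46 ± 0.28 (limma adjusted p = 0.701, exact permutation p = 0.2, two-sided, where 0.1 is the smallest that 3 against 3 allows). It was 0.26 without ACSS2-HKO replicate 1 and 0.23 without ACSS2-flox replicate 1.

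The promoters of Plin2 and Plin5 are shown because they were the only members with AGGTCA, the core motif of PPAR elements, in the 250 bases before an annotated start. Windows were found for 9 of the 10 genes, and the motif was searched on both strands. The stretches outside annotated exons are given (RefSeq, GRCm38.p6, minus strand, 5′ to 3′), with the match in capitals.
Plin2, chr4:86670218-86670309: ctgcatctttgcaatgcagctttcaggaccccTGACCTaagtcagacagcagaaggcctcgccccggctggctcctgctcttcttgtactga
Plin5, chr17:56117607-56117798: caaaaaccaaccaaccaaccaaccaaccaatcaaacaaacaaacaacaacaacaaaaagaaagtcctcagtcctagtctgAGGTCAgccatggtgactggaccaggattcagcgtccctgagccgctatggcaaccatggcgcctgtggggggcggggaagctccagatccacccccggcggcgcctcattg
The Plin2 match, read on the opposite strand, starts 218 bases and the Plin5 match 170 bases before the annotated start used for its window. Both of these starts lie inside the gene spans given above. The printed stretches stop at the outer gene ends, so the matches are nearer to those ends. Plin5 has 2 annotated starts, and the match is in the window of the first. AGGTCA is present in 14.0% of all 32851 windows of this length. A match describes letters only.

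Plin4, which encodes a perilipin best known from adipocytes and muscle, was low in all livers. It lies on chromosome 17 (56100587 to 56109948, minus strand). Its FPKM was 0.995, 0.704 and 0.806 in ACSS2-HKO libraries, against 0.388, 1.06 and 0.544 in ACSS2-flox libraries. These rest on 231, 166 and 209 fragments in ACSS2-HKO and 86, 259 and 137 fragments in ACSS2-flox. The ACSS2-HKO values all lay inside the range of ACSS2-flox. Fitted without the filter, its log2 fold change was 0.16 ± 0.16 (limma adjusted p = 0.817).

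Plin2 made up most of the perilipin signal, which can be summed because FPKM is scaled to length. Its share of the 4 perilipins' summed FPKM was 71.1%, 73.1% and 74.2% in ACSS2-HKO libraries and 85.4%, 69.1% and 72.6% in ACSS2-flox libraries. Plin3 gave 14.0% to 17.2% in ACSS2-HKO and 8.09% to 18.3% in ACSS2-flox, and Plin5 gave 8.64% to 14.4% in ACSS2-HKO and 6.25% to 12.7% in ACSS2-flox. For Plin2, Plin3 and Plin5 alike, the shares of the genotypes overlapped and ACSS2-flox replicate 1 stood at the edge of the range. The sum itself was 204, 223 and 195 FPKM in ACSS2-HKO, against 175, 164 and 186 FPKM in ACSS2-flox, with no overlap. Among all tested genes taken singly, 15.5% did not overlap either, and Plin2, the largest part of the sum, overlapped by itself. The separation of the sum ended with median-ratio scaling, at 193, 210 and 192 in ACSS2-HKO against 216, 164 and 174 in ACSS2-flox.

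**Figure D2:**
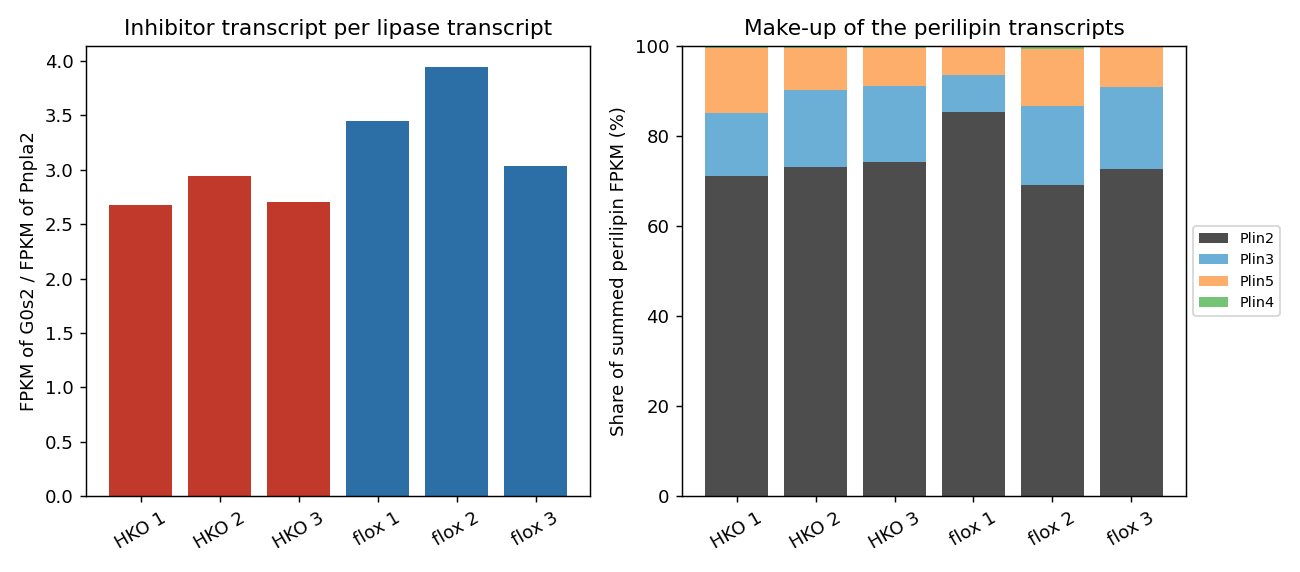
Left, FPKM of G0s2 divided by FPKM of Pnpla2 in each ACSS2-HKO library (red) and ACSS2-flox library (blue); right, percent of summed perilipin FPKM from each perilipin gene. The ratio runs from 2.68 to 2.94 in ACSS2-HKO and from 3.03 to 3.94 in ACSS2-flox, and the Plin2 share of ACSS2-flox replicate 1, 85.4%, is the highest.

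Among the CIDE genes, Cideb carried nearly all of the signal. Its product is the hepatocyte CIDE protein, which acts in the lipidation of very low density lipoprotein as well as at droplets. Cideb (chromosome 14, 55754052 to 55758424, minus strand) was the most abundant of the 10 genes in each of the 6 libraries. It read 244, 197 and 173 FPKM in ACSS2-HKO libraries, against 360, 193 and 199 FPKM in ACSS2-flox libraries. ACSS2-flox replicate 1 stood far above the rest, which overlapped across genotypes. The means were 205 ± 36.1 FPKM in ACSS2-HKO and 251 ± 94.9 FPKM in ACSS2-flox (SD, n = 3 each). The log2 fold change was -0.24 ± 0.28 (limma adjusted p = 0.862), with a 95% interval from -0.88 to 0.39, and it turned to 0.05 without ACSS2-flox replicate 1. Cideb was 0.88 higher on the log2 scale in that library than in the other 2 ACSS2-flox libraries, against a median of 0.12 for the 415 tested genes within 10% of its length. The gene overlaps Nop9 (4.35 to 5.85 FPKM) and Ltb4r2 (0.361 to 0.587 FPKM), and whether counting used strand is not given in the sources used here.

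Cidec, known as Fsp27 in mouse, encodes the protein that fuses small droplets into large ones and is low in lean liver. It was the most variable member that was tested, with a 32.7-fold range over the 6 libraries. The gene (chromosome 6, 113424634 to 113435760, minus strand) has 2 annotated start regions, and 1 value per gene covers transcripts from both. It overlaps the noncoding gene Gm52871, which is not used here. The 250 bases before each start are shown because the row cannot tell the starts apart (RefSeq, GRCm38.p6, minus strand, 5′ to 3′). Capitals mark ACGTG or GCGTG on either strand, the core of the hypoxia response element.
Cidec first start, chr6:113435761-113436010: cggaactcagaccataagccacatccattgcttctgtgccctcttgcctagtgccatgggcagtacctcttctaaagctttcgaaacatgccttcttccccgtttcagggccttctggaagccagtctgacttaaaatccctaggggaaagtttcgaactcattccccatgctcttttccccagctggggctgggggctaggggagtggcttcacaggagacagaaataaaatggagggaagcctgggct
Cidec second start, chr6:113434765-113435014: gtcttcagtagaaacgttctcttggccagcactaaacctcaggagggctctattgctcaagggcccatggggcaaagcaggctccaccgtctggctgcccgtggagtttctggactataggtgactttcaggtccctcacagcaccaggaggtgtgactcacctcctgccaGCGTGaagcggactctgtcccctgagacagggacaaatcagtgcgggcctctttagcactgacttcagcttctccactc
The second window holds 1 hypoxia core, 79 bases before the start, and neither window holds AGGTCA. The hypoxia core is not particular to Cidec among the members. It is also in windows of Plin2, Plin5 and G0s2, and 3 times in the second window of Hilpda. Of the 32851 windows, 38.6% hold the hypoxia core.

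Cidec read 11.1, 0.619 and 1.44 FPKM in ACSS2-HKO libraries, against 0.338, 2.71 and 3.85 FPKM in ACSS2-flox libraries. Its fragments numbered 686, 39 and 100 in ACSS2-HKO and 20, 177 and 259 in ACSS2-flox. The highest library was ACSS2-HKO replicate 1 and the lowest ACSS2-flox replicate 1, and the other ACSS2-HKO libraries lay between ACSS2-flox replicate 1 and the other ACSS2-flox libraries. The exact 95% Poisson interval was 636 to 739 fragments in ACSS2-HKO replicate 1 and 12.2 to 30.9 fragments in ACSS2-flox replicate 1, so counting error did not span the gap between these extremes. It was 27.7 to 53.3 fragments in ACSS2-HKO replicate 2, which overlaps that of ACSS2-flox replicate 1. For Cidec the log2 fold change was 0.33 ± 0.74 (limma adjusted p = 0.932), with a 95% interval from -1.36 to 2.02. It turned to -0.54 without ACSS2-HKO replicate 1 and to -0.23 without ACSS2-flox replicate 1, so its direction rested on single libraries.

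Cidea, which encodes the CIDE protein of brown fat and of severely steatotic mouse liver, was at the limit of detection. It had 1, 0 and 0 recovered fragments in ACSS2-HKO libraries and 0, 1 and 0 recovered fragments in ACSS2-flox libraries. In the libraries with 0 fragments, a count of 0 allows up to 0.0772 FPKM (3 fragments in the shallowest library), and this limit covers counting error only. No difference between genotypes was detectable at this depth.

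Pnpla2 encodes ATGL, the enzyme that starts triglyceride breakdown on the droplet. It lies on chromosome 7 (141455188 to 141460743, plus strand). Pnpla2 read 44.5, 28.1 and 31.4 FPKM in ACSS2-HKO libraries, against 31.0, 29.5 and 29.9 FPKM in ACSS2-flox libraries. ACSS2-HKO replicate 1 was above every other library, and the ACSS2-flox values fell between those of the other 2 ACSS2-HKO libraries. The means were 34.7 ± 8.68 FPKM in ACSS2-HKO and 30.2 ± 0.798 FPKM in ACSS2-flox (SD, n = 3 each). The log2 fold change of 0.17 ± 0.20 (limma adjusted p = 0.863) had a 95% interval from -0.29 to 0.63 and turned to -0.02 without ACSS2-HKO replicate 1.

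G0s2, the G0/G1 switch gene, encodes the main ATGL inhibitor of hepatocytes. It lies on chromosome 1 (193272160 to 193273188, minus strand). G0s2 read 119, 82.6 and 85.0 FPKM in ACSS2-HKO libraries, against 107, 116 and 90.5 FPKM in ACSS2-flox libraries. In ACSS2-HKO, replicates 2 and 3 were the lowest of the 6 libraries and replicate 1 was the highest. On the log2 scale G0s2 differed by -0.14 ± 0.21 (limma adjusted p = 0.894), with a 95% interval from -0.61 to 0.33, or 0.653 to 1.26 times the ACSS2-flox level. It kept its sign with each library left out, from -0.31 to -0.05.

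Hilpda encodes a hypoxia-inducible inhibitor of ATGL that is made by hepatocytes and by macrophages. It lies on chromosome 6 (29272488 to 29275449, plus strand). It read 2.05, 1.49 and 1.92 FPKM in ACSS2-HKO libraries, against 2.15, 0.705 and 1.89 FPKM in ACSS2-flox libraries. The low value in ACSS2-flox replicate 2 came from 29 fragments, with an exact 95% Poisson interval of 19.4 to 41.6, and the other 5 libraries had 59 to 84 fragments. On the log2 scale Hilpda differed by 0.17 ± 0.25 (limma adjusted p = 0.891), and it turned to -0.10 without ACSS2-flox replicate 2 and to -0.01 with quantile normalization.

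**Figure D3:**
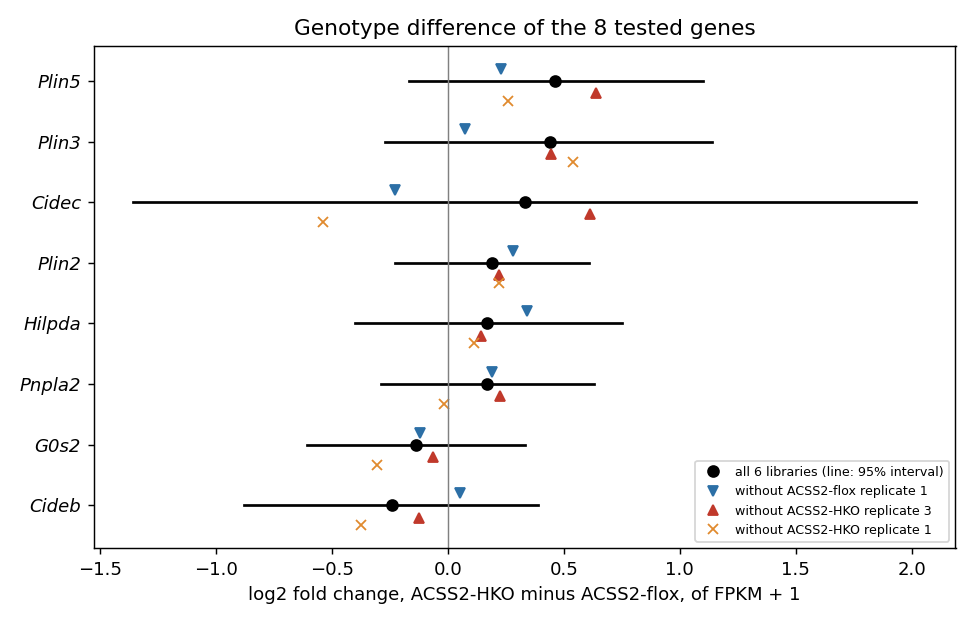
Log2 fold changes of FPKM + 1, ACSS2-HKO minus ACSS2-flox, for the 8 tested genes, with black points and lines for the value and 95% interval from all 6 libraries and coloured marks for the value without 1 library. Every interval includes 0; the widest is that of Cidec, from -1.36 to 2.02.

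The transcript of the inhibitor G0s2 was set against that of its target lipase within each library, which removes the effect of the library total. The ratio of G0s2 to Pnpla2 was 2.68, 2.94 and 2.70 in ACSS2-HKO libraries, against 3.45, 3.94 and 3.03 in ACSS2-flox libraries. Every ACSS2-HKO value was below every ACSS2-flox value, with means of 2.77 ± 0.143 in ACSS2-HKO and 3.47 ± 0.455 in ACSS2-flox (SD, n = 3 each). The gap between groups was narrow, at 2.94 in ACSS2-HKO replicate 2 against 3.03 in ACSS2-flox replicate 3. These rest on 2501 G0s2 and 2661 Pnpla2 fragments, and on 2923 and 3020. Counting error of the ratio was not computed, and the gap may lie within it. The difference between genotypes was -0.32 on the log2 scale, and leaving out any 1 library gave -0.41 to -0.22. It was the only 1 of 7 ratios computed for which the groups did not overlap. The ratios were chosen after the values had been seen, so no p is given. Of the 9817 other tested genes set against Pnpla2 in the same way, 5.92% did not overlap between groups, and 3.81% were lower in ACSS2-HKO. In ACSS2-flox replicate 1, tested genes of about the length of G0s2 read a median of 0.29 higher on the log2 scale than in the other ACSS2-flox libraries, and those of about the length of Pnpla2 differed by -0.20. Without that library the difference in the ratio was again -0.32.

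The other ratios overlapped. Hilpda to Pnpla2 was 0.0459 to 0.0612 in ACSS2-HKO and 0.0239 to 0.0691 in ACSS2-flox. Abhd5, which encodes the co-activator of ATGL, gave ratios to Pnpla2 of 0.233, 0.377 and 0.265 in ACSS2-HKO libraries and 0.251, 0.293 and 0.326 in ACSS2-flox libraries. The ratio of G0s2 to Abhd5, which sets the inhibitor against the co-activator, overlapped as well, at 7.79 to 11.5 in ACSS2-HKO and 9.28 to 13.7 in ACSS2-flox. Plin5 to Plin2 was 0.116 to 0.203 in ACSS2-HKO and 0.0731 to 0.183 in ACSS2-flox.

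By FPKM level, which is scaled to length, Cideb led with a range of 173 to 360 and lay above the range of Plin2. Plin2 (114 to 163 FPKM) exceeded G0s2 (82.6 to 119 FPKM) in 5 of 6 libraries. G0s2 lay above the range of Pnpla2 (28.1 to 44.5 FPKM). Pnpla2 and Plin3 could not be ordered, since each was higher in 3 libraries. Plin5 lay below Plin3 in 5 of 6 libraries. Cidec and Hilpda could not be ordered either, since each was the higher in 3 libraries. Hilpda exceeded Plin4 in 5 of 6 libraries, with overlapping ranges. Cidea was last in all 6 libraries. The lipase Pnpla2 therefore read lower than its inhibitor G0s2 in every library, and higher than its inhibitor Hilpda in every library.

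Among other genes of lipolysis, 13 of the 16 in the table were tested, and 0 passed limma's test in either direction. The list, like the others here, was written with earlier results of these data known. It had 6 fold changes above 0 and 7 below, with a median of -0.06. The 4 of smallest p were all below 0. Acsl1, which activates long fatty acids, read 76.2, 60.8 and 44.3 FPKM in ACSS2-HKO, against 104, 80.7 and 88.8 FPKM in ACSS2-flox (log2 fold change -0.61 ± 0.23, limma adjusted p = 0.637). Fabp1, the liver fatty acid binding protein gene, had a log2 fold change of -0.95 ± 0.40, with overlap between the groups. It read 6370, 8170 and 3460 FPKM in ACSS2-HKO, against 15500, 8120 and 10400 FPKM in ACSS2-flox. The lowest library was ACSS2-HKO replicate 3 and the highest ACSS2-flox replicate 1. The arylacetamide deacetylase gene Aadac and the monoglyceride lipase gene Mgll had log2 fold changes of -0.50 ± 0.24 and -0.49 ± 0.25. Pnpla3, a paralog of the lipase whose product sits on droplets, read 0.211, 1.09 and 0.540 FPKM in ACSS2-HKO, against 2.91, 0.831 and 0.607 FPKM in ACSS2-flox. Plin1, the adipocyte perilipin, was at 0 in 5 of 6 libraries, and Pnpla3 and Plin1 are named from the list for their place beside the members, after their values were seen.

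Genes that make triglyceride and build droplets gave medians near that of all genes. Of 12 tested triglyceride synthesis genes, 8 fold changes were above 0 and 4 below, with a median of 0.06 and 0 past the test. The phosphatidate phosphatase genes Lpin3 and Lpin2 had log2 fold changes of 0.46 ± 0.17 and -0.73 ± 0.38. The acyltransferase genes Gpat4 and Agpat3 had log2 fold changes of 0.48 ± 0.27 and 0.33 ± 0.20. Of 20 tested genes for droplet biogenesis and other coat proteins, 11 were above 0 and 9 below, with a median of 0.05 and 0 past the test. Acsl3, whose product marks nascent droplets, had a log2 fold change of -0.41 ± 0.19. The seipin gene Bscl2, the hepatocyte droplet protein gene Hsd17b13 and the seipin partner gene Tmem159 had log2 fold changes of 0.38 ± 0.18, 0.39 ± 0.24 and 0.43 ± 0.27.

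Several members are known PPAR targets, and Hilpda a target of hypoxia-inducible factors. Of 16 tested regulator genes, 7 fold changes were above 0 and 9 below, with a median of -0.22 and 0 past the test. Cebpb, a C/EBP transcription factor gene, read 45.9, 43.5 and 60.9 FPKM in ACSS2-HKO, against 94.0, 85.9 and 77.0 FPKM in ACSS2-flox, without overlap (log2 fold change -0.77 ± 0.19, limma adjusted p = 0.556). Cebpa had a log2 fold change of -0.36 ± 0.17. The hypoxia factor gene Epas1 and the PPAR partner gene Rxra had log2 fold changes of 0.74 ± 0.42 and 0.34 ± 0.22. For both, ACSS2-flox replicate 1 was the lowest library, at 10.8 FPKM for Epas1 and 42.9 FPKM for Rxra. Epas1 read 29.5 to 45.0 FPKM in ACSS2-HKO and 26.7 and 41.1 FPKM in the other ACSS2-flox libraries. Rxra read 71.4 to 78.8 FPKM in ACSS2-HKO and 68.0 FPKM in each of the other ACSS2-flox libraries. Of 17 tested PPARα targets, 3 were above 0 and 14 below, with a median of -0.26 and 0 past the test. The fatty acid transporter gene Cd36 read 74.3, 55.2 and 53.4 FPKM in ACSS2-HKO, against 23.0, 29.2 and 32.7 FPKM in ACSS2-flox (log2 fold change 1.08 ± 0.21, limma adjusted p = 0.452). The peroxisomal thiolase gene Acaa1b and the lipase inhibitor gene Angptl4 had log2 fold changes of -0.82 ± 0.33 and -0.65 ± 0.32, and Fabp1 is on this list too. Of 13 tested hypoxia targets, 8 were above 0 and 5 below, with a median of 0.03 and 0 past the test. Vegfa, Slc2a1, Pdk1 and Bnip3 had log2 fold changes of -0.40 ± 0.20, 0.45 ± 0.24, -0.45 ± 0.26 and -0.44 ± 0.26.

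**Figure D4:**
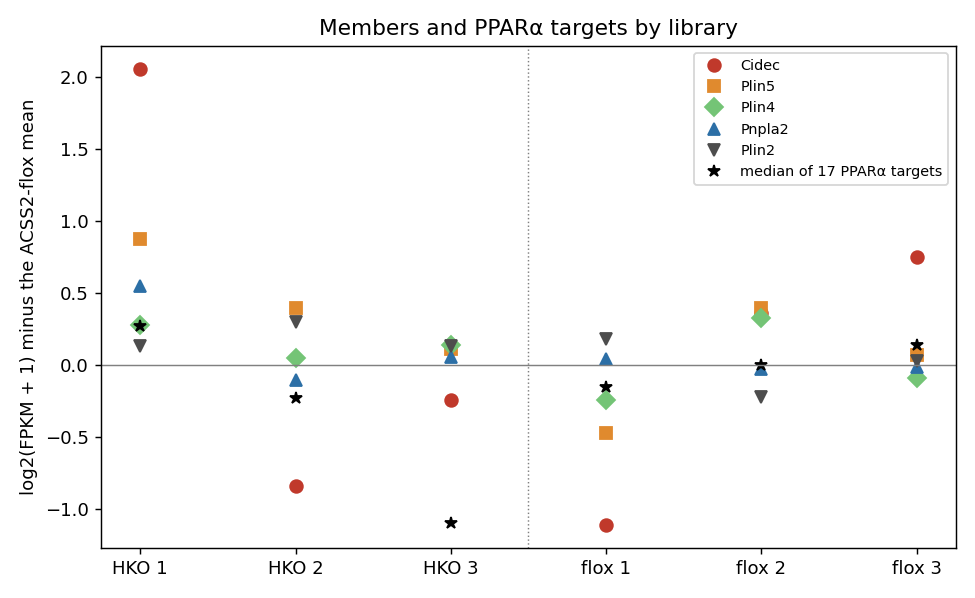
Log2(FPKM + 1) minus the mean of the 3 ACSS2-flox libraries for 5 members and for the median of 17 PPARα target genes, by library. In ACSS2-HKO replicate 1 Cidec is at 2.06, Plin5 at 0.88, Pnpla2 at 0.55 and the PPARα median at 0.27; in ACSS2-HKO replicate 3 the PPARα median is at -1.1 with Plin5 at 0.11.

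Within ACSS2-HKO, replicate 1 had the highest values of Cidec, Plin5, Plin4, Cideb, Pnpla2, G0s2, Hilpda and Cidea, and it also had the highest PPARα target median, at 0.27 relative to the ACSS2-flox mean. Plin2 and Plin3 went otherwise: both were highest in ACSS2-HKO replicate 2, and Plin3 was lowest in ACSS2-HKO replicate 1. The share of all genes that were highest in ACSS2-HKO replicate 1 was not computed. Cidea had 1 fragment there. For Hilpda and Plin4, the Poisson intervals of ACSS2-HKO replicates 1 and 3 overlapped. Whether the members and the PPARα targets moved together was not tested. The median of the PPARα targets was -0.23 in ACSS2-HKO replicate 2 and -1.1 in ACSS2-HKO replicate 3. In ACSS2-HKO replicate 3, the library with the lowest median, Plin5 stood at 0.11 and Pnpla2 at 0.06 relative to the ACSS2-flox mean, and Cidec at -0.24. In ACSS2-flox the target median was -0.15, 0.00 and 0.14, while Cidec stood at -1.11, 0.36 and 0.75.

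The genes whose profiles over the 6 libraries were nearest to Plin2 were Copz1, Atox1, Mrps24 and Asnsd1, with root mean square differences of 0.024, 0.036, 0.036 and 0.049 on the log2 scale after centring. At a much looser limit, 3423 of 9810 genes lay within 0.25 of Plin2. Nearest to Plin5 were LOC118567621, the thrombomodulin gene Thbd, the aspartate aminotransferase gene Got1 and the serpin gene Serpina3m, at 0.11 to 0.13, and 386 genes lay within 0.25. Got1 read 251, 143 and 119 FPKM in ACSS2-HKO libraries, against 81.1, 160 and 122 FPKM in ACSS2-flox libraries.

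Markers of other cells differed between libraries beside these values, and in whole liver fewer cells of a type and less RNA per cell cannot be told apart. All 8 hepatocyte markers were tested, 1 with a fold change above 0, with summed levels of 48300 to 55400 FPKM in ACSS2-HKO and 55300 to 86600 FPKM in ACSS2-flox, so the tissue label held. All 10 Kupffer cell and macrophage markers had fold changes above 0, and their sum was 689 to 1700 FPKM in ACSS2-HKO and 371 to 579 FPKM in ACSS2-flox. Of the 10 neutrophil markers 5 were tested, all with fold changes above 0, and the 10 summed to 277 to 6460 FPKM in ACSS2-HKO and 21.7 to 63.5 FPKM in ACSS2-flox. Most of that sum was Lcn2, which hepatocytes also make in the acute phase, at 403, 222 and 6100 FPKM in ACSS2-HKO and 45.9, 36.7 and 13.6 FPKM in ACSS2-flox. All 7 endothelial markers had fold changes above 0, and they summed to 128 to 157 FPKM in ACSS2-HKO and 38.7, 160 and 192 FPKM in ACSS2-flox, the low value in ACSS2-flox replicate 1. Of the 8 stellate cell markers 4 had fold changes above 0, and the 8 summed to 163 to 291 FPKM in ACSS2-HKO and 189 to 259 FPKM in ACSS2-flox. The part of these cells in the member values was not tested. Of 4 adipocyte markers in the table, Adipoq was at most 0.0241 FPKM and Cfd at most 0.121 FPKM in any library, and the sum of 2.87 to 3.89 FPKM in ACSS2-HKO and 1.84 to 3.13 FPKM in ACSS2-flox was nearly all Lipe. The 7 skeletal muscle markers, 4 of them under 0.1 FPKM in every library, summed to 1.16 to 1.59 FPKM in ACSS2-HKO and 1.52 to 1.55 FPKM in ACSS2-flox.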

How the data were processed

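The authors deposited 1 table of FPKM values per gene and library. The submitters' processing notes name the build mm10 and the tool DESeq2 with no role, while the aligner, counter, annotation and filters are unstated there and in the labels. Whole fragment counts were recovered for 16134 of 16135 genes by finding library totals and gene lengths that made every count whole within 0.01. The shortest length that fitted was used, so lengths and counts of genes with few fragments may be too low. Because FPKM is relative to the library, a change in a few abundant genes moves all others. Tests used limma 3.58.1 (R 4.3.3, trended variance, two-sided, Benjamini-Hochberg over all tested genes) on log2(FPKM + 1) of the 9818 genes whose mean over the 6 libraries reached 1 FPKM. The pseudocount understates changes of low genes. Single genes were also given an exact permutation test over 20 arrangements. The limma and recovery steps were tested on simulated data, and the outcomes are not given here. Members and lists were chosen with earlier results of these data known; named genes are all members, Acss2, the 4 tested genes of smallest p per list, and the 4 nearest in profile to Plin2 and to the member of smallest p. Abhd5, Pnpla3, Plin1, Lpin1, Fgf21, Pdk4 and the single cell type markers named fall outside this rule and were chosen after their values were seen. Alternatives were other pseudocounts, filters, scalings and variance models, a replicate block, each library left out, a gene length correction (loess, span 0.5) and limma voom on the recovered fragments, the last 2 added after seeing the data. Promoter sequences come from RefSeq (GRCm38.p6), and 1 member's sequence was not used here.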

Additional observations from a re-analysis of the deposited data

How the results depend on the processing

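No member passed the adjusted threshold, or an unadjusted p under 0.05, under any of the 18 alternatives; Cidec and Hilpda were not tested with the filter at 5 FPKM. Over all genes the count past the adjusted threshold was 0 except for 4 with the replicate block and 3 without ACSS2-HKO replicate 2, so single libraries left out gave 0 to 3. Across the 8 tested members, 135 of 142 recomputed fold changes kept their sign and 7 turned. Cideb turned to 0.0512 without ACSS2-flox replicate 1 and to 0.164 without both libraries that stood apart. Hilpda turned to -0.00839 with quantile normalization and to -0.102 without ACSS2-flox replicate 2. Cidec turned to -0.538 and -0.227 without ACSS2-HKO replicate 1 and ACSS2-flox replicate 1, and Pnpla2 to -0.019 without ACSS2-HKO replicate 1. With single libraries left out, log2 fold changes ran from -0.398 to 0.0512 for Cideb, -0.538 to 0.91 for Cidec, -0.102 to 0.34 for Hilpda and -0.019 to 0.303 for Pnpla2. They ran from 0.0836 to 0.282 for Plin2, 0.0723 to 0.678 for Plin3, 0.23 to 0.664 for Plin5 and -0.308 to -0.0459 for G0s2. The gene length correction gave 0.337 for Plin3, 0.366 for Plin5 and -0.316 for Cideb. With the replicate block the count of members stayed at 0, and the fold change of Plin5 was 0.464 with an adjusted p of 0.756. Same-numbered libraries did not deviate together (correlations of 0.0132, 0.0032 and -0.0627 across genes), so the numbers were not taken as pairs. Unadjusted counts over all genes moved from 598 higher and 147 lower to 371 and 302 with median-ratio scaling, and with single libraries left out from 267 to 577 higher and from 74 to 464 lower. Depth limits Cidea and adds counting error to the lowest libraries of Cidec and Hilpda, with 20 and 29 fragments.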

Other observations

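Among PPARα targets, Fgf21 and Pdk4 also varied widely within a genotype; they were picked after their values were seen. The hormone gene Fgf21 read 9.23, 2.44 and 7.65 FPKM in ACSS2-HKO libraries and 2.94, 2.41 and 61.4 FPKM in ACSS2-flox libraries. The pyruvate dehydrogenase kinase gene Pdk4 read 3.41, 2.97 and 1.04 FPKM in ACSS2-HKO libraries and 0.438, 10.4 and 4.72 FPKM in ACSS2-flox libraries. The high libraries were not the same: Cidec peaked in ACSS2-HKO replicate 1, Fgf21 in ACSS2-flox replicate 3 and Pdk4 in ACSS2-flox replicate 2. The lipin genes Lpin1 and Lpin2, which make the diglyceride that precedes triglyceride, were also uneven among controls, and Lpin1 was picked after its values were seen. Lpin2 read 8.52, 7.32 and 8.80 FPKM in ACSS2-HKO libraries and 6.73, 19.7 and 21.2 FPKM in ACSS2-flox libraries, and Lpin1 read 16.7, 19.5 and 20.5 FPKM in ACSS2-HKO libraries and 11.5, 48.0 and 30.8 FPKM in ACSS2-flox libraries. For both, ACSS2-flox replicate 1 was the lowest of the 6 libraries and the other ACSS2-flox libraries were the highest.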
